A study of Mus musculus with 5 samples.

Results

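The genes described here are 34 genes of the endoplasmic reticulum (ER) that fold secreted proteins, sense misfolded ones or send them for degradation. They were chosen by name, as the rows of the deposited table whose Ensembl ID carries one of the 34 symbols, out of 55401 genes. Levels are FPKM, fragments per kilobase of exon scaled to library size, a level per transcript length. A gene counts as measured where its FPKM averaged 1 or more across the 5 libraries, which held for 33 of the 34, among 12113 measured genes in all. The study measured RNA from wild-type mouse bone marrow mesenchymal stem cells (BMSCs), adherent stromal cells able to form bone, fat and cartilage cells, in 5 cultures. Each culture was grown for 72 h. Continuous negative pressure of -80, -120, -160 or -200 mmHg was applied by vacuum pump for 48 h, and the control is labelled 0 mmHg. Each condition has 1 library, so no difference has a replicate check, no p-value is given, and intervals cover the counting of reads only. The labels do not give the animals, their age or sex, or the passage of the cells.

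The ER is where collagens and other secreted proteins of a stromal cell are folded. When unfolded protein builds up in it, the sensors IRE1 (gene Ern1), PERK (Eif2ak3) and ATF6 start the unfolded protein response. IRE1 splices the message of the transcription factor XBP1, PERK phosphorylates the translation factor eIF2alpha and so favours translation of ATF4, and ATF6 is cut free to enter the nucleus. The targets include the chaperones themselves, and the machinery of ER-associated degradation (ERAD), which carries misfolded proteins back to the cytosol. ATF6, together with the CCAAT-binding factor NF-Y, binds the ER stress response element (ERSE), and ERSE-II is a shorter arrangement of the same letters. The deposited values are totals per gene, so spliced Xbp1 and the activity of the sensors were not measured.

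Promoter sequence is shown first, because several of the genes whose levels are described below carry ERSE letters there. Windows of 250 bases before to 50 bases after the RefSeq gene start (build GRCm38.p6) were searched on both strands for ERSE (CCAAT, 9 bases of any kind, CCACG), ERSE-II (ATTGG, 1 base, CCACG) and the XBP1-type element UPRE (TGACGTGG). A window was present for 29 of the 34 genes. ERSE letters were in 9 of these 29, and in 37 of 27025 genes with a window (0.137%). The 9 genes were Hspa5, Hsp90b1, Calr, Canx, Pdia6, Dnajc3, Creld2, Syvn1 and Derl3. ERSE-II was in Herpud1 and Dnajb11, of 12 genes in all (0.0444%), and UPRE in 0 of the 29 against 193 genes in all (0.714%). These elements were first defined on chaperone promoters such as these, so their presence here is background. A match describes letters only and shows no binding.

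The stretches are written 5′ to 3′ on the gene's strand, with the letters of the element in capitals. Where the element lies on the other strand it reads CGTGG, 9 bases, ATTGG. The stretch of Hspa5 is short because it lies in an exon of a longer annotated transcript. Herpud1 holds ERSE-II and the others ERSE, and Hsp90b1 holds a copy in each direction.
Hspa5, chr2:34772020-34772048, plus strand: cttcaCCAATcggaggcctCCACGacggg
Calr, chr8:84847055-84847113, minus strand: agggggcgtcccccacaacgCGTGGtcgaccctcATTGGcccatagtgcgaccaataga
Canx, chr11:50325780-50325838, minus strand: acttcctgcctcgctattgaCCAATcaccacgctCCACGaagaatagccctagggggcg
Hsp90b1, chr10:86705513-86705676, minus strand: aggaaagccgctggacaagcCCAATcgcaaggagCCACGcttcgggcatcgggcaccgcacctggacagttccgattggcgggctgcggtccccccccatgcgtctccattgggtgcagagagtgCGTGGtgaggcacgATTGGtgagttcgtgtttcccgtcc
Dnajc3, chr14:118937807-118937865, plus strand: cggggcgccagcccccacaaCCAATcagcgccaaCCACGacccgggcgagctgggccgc
Herpud1, chr8:94386357-94386407, plus strand: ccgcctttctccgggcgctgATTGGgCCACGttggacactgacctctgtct
Creld2, chr15:88819500-88819558, plus strand: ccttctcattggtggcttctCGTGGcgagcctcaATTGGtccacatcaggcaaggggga
Syvn1, chr19:6046512-6046570, plus strand: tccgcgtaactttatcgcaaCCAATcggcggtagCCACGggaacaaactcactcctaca
Pdia6, chr12:17266471-17266529, plus strand: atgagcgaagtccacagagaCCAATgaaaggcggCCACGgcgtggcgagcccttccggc
Within these windows the element began between 212 and 44 bases before the start in the ERSE genes, and 52 bases before it in Herpud1. In Dnajb11 the ERSE-II letters lay after the start, from base 7 to base 17 of the transcript, and are not printed.

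The libraries held 16600622 to 18398911 reads, as recovered from the deposited values. Genes that mark where cells came from set the control apart: 4 Y-linked genes had 2493 reads there and 0 in every pressure library. The X-inactivation RNA Xist had 0 reads in the control and 12 to 20 elsewhere, a low level of 0.040 to 0.064 FPKM. An effect of pressure and another origin of the control cells therefore cannot be told apart in any contrast with the control below. All these contrasts also share that 1 library. Of 13 stromal markers 11 were measured, with summed levels of 3494 FPKM in the control against 1995 to 2260 FPKM with pressure, with 5 of the 11 above the control in all 4 pressure libraries and 6 below. The sum was carried by Ly6a (1740 FPKM, then 622 to 828 FPKM) and Col1a1 (929.6 FPKM, then 435 to 564 FPKM). The surface marker Thy1 had 1 read in the control against 51 to 91 reads. Of 8 markers of plasma cells, which are rich in ER, 0 were measured, and the antibody genes Igkc and Ighm were at 0 in all 5 libraries. The macrophage list summed to 27.6 FPKM in the control against 67.1 to 74.9 FPKM under pressure (3 of 9 measured), with Itgam at 0 throughout. Most of that sum was Cd14 (23.6 FPKM, then 50.3 to 55.6 FPKM). The other measured markers were Lyz2 (1.57 FPKM, then 9.83 to 12.3 FPKM) and Cd68 (2.29 FPKM, then 5.70 to 7.57 FPKM). The endothelial list summed to 1.15 and 3.45 to 4.99 FPKM (1 of 6 measured), and the osteoclast list to 78.5 and 2.11 to 3.19 FPKM (1 of 6, Ctsk). Their part in the differences below was not tested.

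The first question was how these genes under each pressure differed from the control. A gene is called higher or lower where log2(FPKM + 1) differed by at least 1, a fixed rule of size that understates changes of low genes. Of the 33 measured genes 6 were higher at each of the first 3 pressures and 5 at -200 mmHg. Among all measured genes the shares were 10.7%, 8.85%, 9.59% and 9.10% in that order. In each pressure library 1 was lower, beside 6.89%, 6.45%, 6.03% and 6.38% of all genes. Ern1, Dnajc3, Hyou1, Dnajb9 and Herpud1 rose at all 4 pressures (5 of 33 or 15.2%, against 6.49% of all measured genes), and Ppp1r15b alone fell at all 4 (against 4.46%). With upper-quartile scaling these background shares were 4.18% and 6.43%, and the members' counts 4 and 1. A size rule on log2(FPKM + 5), which weighs low genes less, left Dnajc3 higher at all 4 pressures, beside 1.75% of all measured genes. It left no gene lower at all 4, beside 2.72%. The remaining genes differed less. In 26 of the 33 the rule was met nowhere, as in 9456 of the 12113 measured genes. The median log2 difference of the 33 was 0.47, 0.52, 0.52 and 0.56 from -80 to -200 mmHg, beside 0.14 to 0.16 for all measured genes. Without regard to size, the control lay below all 4 pressure libraries in 26 of the 33 genes, as in 51.5% of all measured genes, and above all 4 in 6, as in 33.3%.

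The genes that passed the rule at all 4 pressures lie on different chromosomes (gene bounds of GENCODE M21, build GRCm38). Ern1 is at chr11:106394650-106487852, minus strand, and Dnajc3 at chr14:118937976-118981697, plus strand. Hyou1 is at chr9:44379490-44392369, plus strand, Dnajb9 at chr12:44205559-44210326, minus strand, and Herpud1 at chr8:94386438-94395377, plus strand. Ppp1r15b is at chr1:133131143-133139783, plus strand. Their levels are sums over all annotated exons of the gene, UTRs included.

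**Figure D1:**
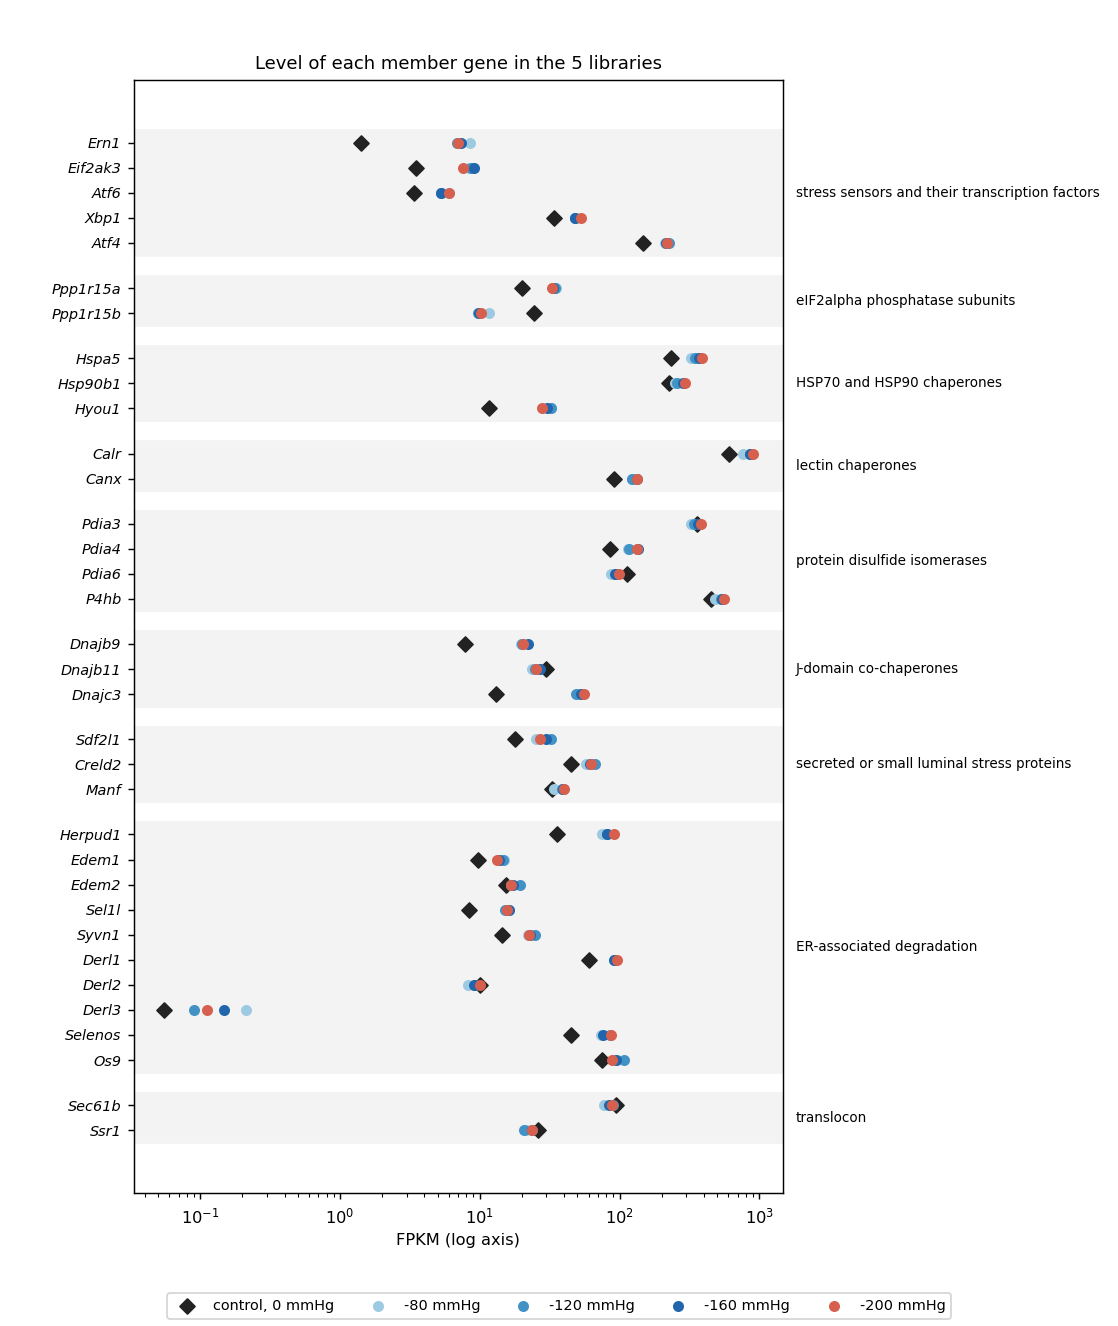
FPKM (log axis) of each of the 34 genes in the 5 libraries, grouped by role, with 1 point per library and the control as a black diamond. Abundant chaperones such as Calr (608 FPKM in the control) lie to the right with the 5 points close together, and Ern1, Dnajc3, Hyou1, Dnajb9 and Herpud1 show the control well to the left of the pressure libraries.

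Among the sensors, Ern1 and Eif2ak3 stood further from the control than Atf6. Ern1, which encodes the kinase and ribonuclease IRE1, stood at 1.41 FPKM in the control and at 8.54, 6.85, 7.34 and 6.95 FPKM at -80, -120, -160 and -200 mmHg. The 4 pressure libraries lay together, with -80 mmHg on top, and all were far above the control. Per library total its reads were 6.06 times those of the control at -80 mmHg (95% Clopper-Pearson interval 5.23 to 7.04) and 4.86 times at -120 mmHg (4.18 to 5.67). Eif2ak3 (PERK) stood at 3.49 FPKM in the control and 8.32, 8.69, 9.03 and 7.53 FPKM under the pressures in that order. It passed the size rule at the first 3 pressures and missed it at -200 mmHg, where the log2 difference was 0.93 and the reads were 2.16 times the control's (1.91 to 2.44). Atf6 stood at 3.40 FPKM in the control against 5.27 to 6.05 FPKM, a log2 difference of 0.51 to 0.68 that passed the rule at no pressure. The ratio of Ern1 to Atf6, which a single scale factor per library cannot change, was 0.415 in the control against 1.16 to 1.41 in the others.

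The transcription factors downstream were closer to the control. Xbp1, the IRE1 substrate, stood at 33.95 FPKM in the control and at 47.9, 47.7, 47.6 and 53.0 FPKM at the pressures in order. Atf4, the factor whose translation PERK favours, stood at 148 FPKM and at 211, 226, 216 and 218 FPKM. In both genes the control was the lowest library, and the log2 differences of 0.48 to 0.63 were within the size rule. RNA level alone misses the step at which each of these factors is mainly controlled.

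The subunits that lead protein phosphatase 1 to eIF2alpha, and so end the PERK signal, stood on opposite sides of the control. Ppp1r15b, the constitutive subunit (CReP), stood at 24.3 FPKM in the control and at 11.6, 9.71, 9.81 and 10.3 FPKM from -80 to -200 mmHg. It was the 1 gene of the 33 that was lower by the size rule at every pressure, and its reads were 0.400 times the control's at -120 mmHg (0.371 to 0.432) and 0.477 times at -80 mmHg (0.443 to 0.512). With libraries scaled to equal summed FPKM its mean log2 difference was -0.94, short of the rule. Ppp1r15a (GADD34), the subunit induced by ATF4, stood at 19.9 FPKM in the control and at 35.1, 34.8, 33.5 and 32.8 FPKM, above the control in each library and below the size rule in each (log2 0.69 to 0.79). The ratio of Ppp1r15a to Ppp1r15b in FPKM was 0.822 in the control and between 3.04 and 3.58 in the pressure libraries. It is a ratio of RNA levels, and the subunits as proteins were not measured. An antisense gene, Gm26616, covers 11.4% of the Ppp1r15b exons and stood at 0.0713 to 0.193 FPKM in the 5 libraries.

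Of the large ATP-driven chaperones, the least abundant differed most. Hyou1 (GRP170), the HSP110-type partner of BiP, stood at 11.6 FPKM in the control and at 32.1, 32.4, 30.04 and 27.9 FPKM under the pressures. All 4 lay beyond the size rule, with 2.41 (2.27 to 2.56) to 2.80 (2.63 to 2.97) times the control's reads. Hspa5, which encodes BiP, the central HSP70 chaperone of the ER, stood at 233 FPKM in the control and at 324, 348, 371 and 390.1 FPKM. The control was lowest and the 4 pressures followed in the order of their size, with log2 differences of 0.47 to 0.74, below the rule. Hsp90b1 (GRP94), the ER form of HSP90, showed the same order on a smaller scale, at 226 FPKM in the control and 249, 258, 287 and 292 FPKM. With upper-quartile or trimmed-mean scaling the control was no longer its lowest library. Exons of other genes cover parts of the Hsp90b1 exons, the largest (10.3%) belonging to the antisense gene 1810014B01Rik at 0.954 to 2.18 FPKM.

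The lectin chaperones hold newly glycosylated proteins. Calr (calreticulin) was the most abundant gene of the set, at 608 FPKM in the control and at 763, 857, 859.8 and 904 FPKM under pressure. Canx (calnexin), its membrane-bound relative, stood at 91.9 FPKM and at 122.9, 123.4, 133.0 and 133.7 FPKM. Neither passed the size rule, and in both the control was the lowest library.

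The protein disulfide isomerases, which form and shuffle disulfide bonds, stood close to the control, with a median log2 difference of -0.03 to 0.20 and 0 of 4 past the rule at any pressure. Pdia3, the partner of the lectin chaperones, stood at 361 FPKM in the control and at 323, 341, 362 and 384 FPKM, so the control lay inside the range of the pressures, and it lay above all 4 with upper-quartile scaling and below all 4 with quantile normalization. P4hb, also a subunit of collagen prolyl hydroxylase, stood at 449.7 FPKM and at 481, 529.9, 540.4 and 559.6 FPKM, and was not above the control in all 4 with upper-quartile or trimmed-mean scaling. Pdia4 (85.6 FPKM, then 115 to 136 FPKM) was above the control in all 4 libraries. Pdia6 (114 FPKM, 87.4 to 99.5 FPKM) was below it in all 4, though not with equal summed FPKM. Its promoter carries the ERSE letters shown above. Hspa5 was above the control and Pdia6 below it, which fixes the direction of their ratio, 2.04 in the control against 3.68 to 3.98.

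J-domain co-chaperones load clients onto BiP and start its ATP cycle. Of these 3 genes, 2 rose at all 4 pressures, beside 6.49% of all measured genes. The other 1 was below the control in all 4 libraries, beside 33.3% of all measured genes. Dnajc3 (p58IPK), also an inhibitor of PERK, stood at 13.1 FPKM in the control and at 51.6, 48.6, 53.4 and 55.5 FPKM from -80 to -200 mmHg. Its mean log2 difference was 1.91, and its reads were 4.22 times the control's at -200 mmHg (3.97 to 4.49). Against Ern1, Dnajc3 had the larger mean difference with a pseudocount of 1 (1.91 against 1.80) and the smaller one with 0.1 (1.98 against 2.31), and its ratio of reads was smaller at each pressure. Dnajb9 (ERdj4), which also restrains IRE1, stood at 7.80 FPKM and at 19.8, 19.99, 22.3 and 20.4 FPKM, with 2.53 to 2.85 times the control's reads. Dnajb11 (ERdj3) stood at 29.8 FPKM in the control and at 23.8, 24.8, 26.8 and 25.1 FPKM, so that the control was its highest library, except with equal summed FPKM. Dnajc3 was above the control and Dnajb11 below it, which fixes the direction of their ratio, 0.441 in the control against 1.96 to 2.21.

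The small luminal proteins passed the rule at no pressure. Sdf2l1, a partner of Dnajb11 and BiP, stood at 17.95 FPKM in the control against 25.2 to 32.6 FPKM, on 366 to 599 reads. Creld2 stood at 45.1 FPKM and 57.6 to 66.3 FPKM, and Manf, a secreted survival factor held in the ER by BiP, at 33.1 FPKM and 34.1 to 40.1 FPKM. All 3 had the control as their lowest library, Manf not so with upper-quartile or trimmed-mean scaling. The log2 difference of Manf at -80 mmHg was 0.04, and the interval of its read ratio there, 0.968 to 1.09, includes 1.

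**Figure D2:**
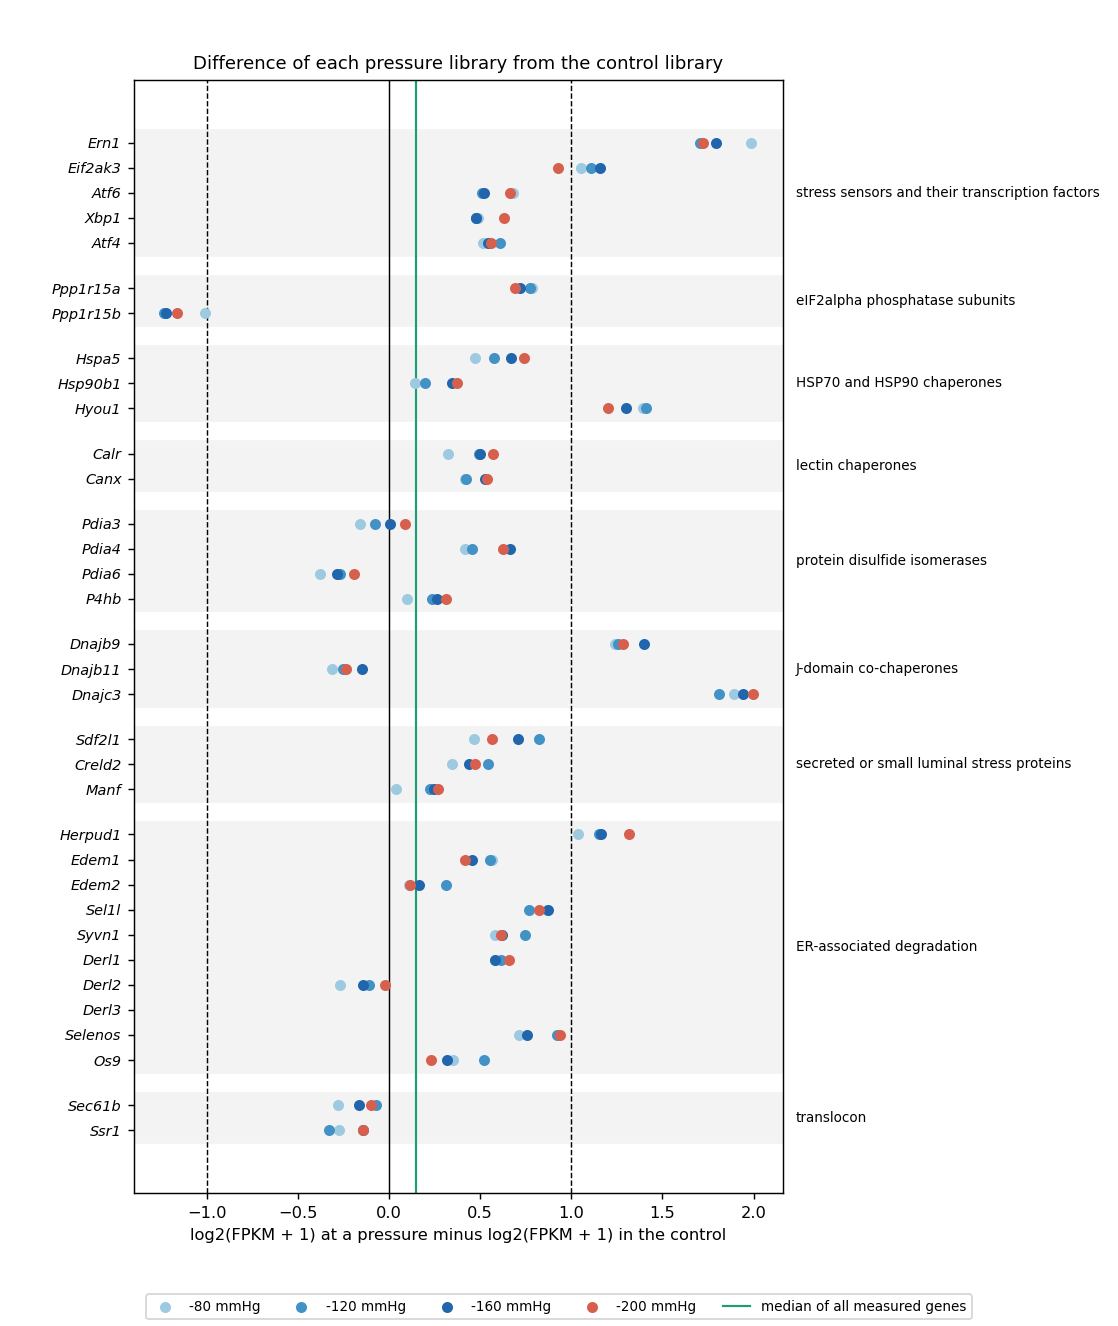
Difference in log2(FPKM + 1) of each pressure library from the control library for the 33 measured genes, with dashed lines at the size rule of 1 and a green line at the median of all measured genes (0.15). Points of a gene cluster within 0.36 of each other, and those of Ern1, Dnajc3, Hyou1, Dnajb9 and Herpud1 lie beyond 1 at all 4 pressures, those of Ppp1r15b beyond -1.

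In ERAD, 1 of 9 measured genes rose and 0 fell at all 4 pressures, beside 6.49% and 4.46% of all measured genes. The median log2 difference of the 9 was 0.58 to 0.61, and that of all genes 0.14 to 0.16. Herpud1, a membrane scaffold of the HRD1 ubiquitin ligase, stood at 35.8 FPKM in the control and at 74.6, 80.7, 81.4 and 90.6 FPKM, which was 2.08 (1.96 to 2.22) to 2.53 (2.39 to 2.69) times the control's reads. With upper-quartile scaling its mean log2 difference was 0.95 and it missed the rule at some pressures, as it did with the trimmed mean. The ligase itself, Syvn1 (HRD1), stood at 14.5 FPKM and 22.1 to 24.9 FPKM, and its adaptor Sel1l at 8.40 FPKM and 15.0 to 16.2 FPKM. Selenos, which ties the channel to the ATPase p97, stood at 44.7 FPKM in the control and at 73.9, 85.6, 76.3 and 86.4 FPKM, with a largest log2 difference of 0.94. The control was lowest in each of these genes, and the rule was passed by Herpud1 only.

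The derlins, channel proteins of ERAD, differed among themselves. Derl1 stood at 60.8 FPKM in the control against 91.5 to 96.6 FPKM. Derl2 stood at 10.1 FPKM against 8.22 to 9.96 FPKM, and was not below the control in all 4 with equal summed FPKM. Derl1 was above the control and Derl2 below it, which fixes the direction of their ratio, 6.02 in the control against 9.699 to 11.1. Derl3 was the 1 gene of the 34 that was not measured, with 2 reads in the control against 3 to 7, so its difference was not detectable at this depth. The glycan-reading factors passed the rule at no pressure, with Edem1 at 9.68 FPKM against 13.3 to 14.8 FPKM, Edem2 at 15.3 FPKM against 16.6 to 19.2 FPKM, and the lectin Os9 at 75.2 FPKM against 88.3 to 108 FPKM.

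At the translocon, where new chains enter the ER, both genes had the control as their highest library. Sec61b, a subunit of the channel, stood at 94.7 FPKM in the control and at 77.8, 90.1, 84.4 and 88.5 FPKM under the pressures. Ssr1, the alpha subunit of the translocon-associated protein complex, stood at 26.2 FPKM and at 21.5, 20.6, 23.6 and 23.7 FPKM. Neither passed the size rule, with log2 differences of -0.33 to -0.07. With equal summed FPKM neither was below the control in all 4 libraries.

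The next question was whether these genes differed among the pressures, a comparison that does not use the control library. By the size rule 0 of 33 did in any of the 6 pairs of pressures, beside 2.26% of all measured genes. The widest spread was that of Sdf2l1, 0.36 on the log2 scale. Within that narrow range 8 genes stood higher at each step from -80 to -200 mmHg, as did 5.67% of all measured genes, and 2 (Ppp1r15a and Edem1) lower at each step, as did 6.19%. This order was looked at after the values were seen. The 8 were Hspa5, Hsp90b1, Calr, Canx, Pdia3, P4hb, Manf and Herpud1, and among them are the 3 most abundant genes in the control. Of the 9 genes with ERSE letters, which include the unmeasured Derl3, 4 are in that group. The group also holds Pdia3, P4hb, Manf and Herpud1, which are not among the 9. Whether the letters go with the order was not tested. Of the genes with ERSE-II, Herpud1 is in the group and Dnajb11 is not. Among the 28 other genes of the mouse with ERSE letters in the window, 6 were measured and 1 of these, Alg12, stood higher at each step. For ERSE-II there were 10 other genes, of which 7 were measured and 1, Rcl1, stood higher at each step.

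These differences were small. Their direction is fixed by the choice of the 8 genes, and the ratios are given as a description. The reads of Hspa5, as a share of the library, were 1.21 times as many at -200 as at -80 mmHg (95% interval, Clopper-Pearson, 1.19 to 1.23), and those of Herpud1 1.22 times (1.16 to 1.28). For Calr the ratio was 1.19 (1.169 to 1.202) and for Canx 1.09 (1.059 to 1.118), the smallest of the 8. Some single steps were far smaller, as between -120 and -160 mmHg for Calr (857 and 859.8 FPKM) or -80 and -120 mmHg for Canx (122.9 and 123.4 FPKM). Over all 33 genes the interval of this ratio lay above 1 in 19 (57.6%), against 18.0% of 11911 genes, and below 1 in 7 (21.2%), against 21.6%. Genes with more reads have narrower intervals, and these shares were not matched for read depth. Ern1 was among the 7, at 0.814 (0.748 to 0.886), with Hyou1 at 0.869 (0.831 to 0.910). With 1 culture per pressure, differences between cultures are not part of these intervals. The order also depended on how the libraries were scaled: 6 of the 8 stood higher at each step with trimmed-mean scaling, 5 with equal summed FPKM and 4 with upper-quartile scaling, Hspa5 and Pdia3 in each. After quantile normalization 3 genes did, Manf, Herpud1 and Pdia6. Of all measured genes, 5.77% did with trimmed-mean scaling and 3.43% with equal summed FPKM. The shares were 5.88% with upper-quartile scaling and 5.69% after quantile normalization.

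**Figure D3:**
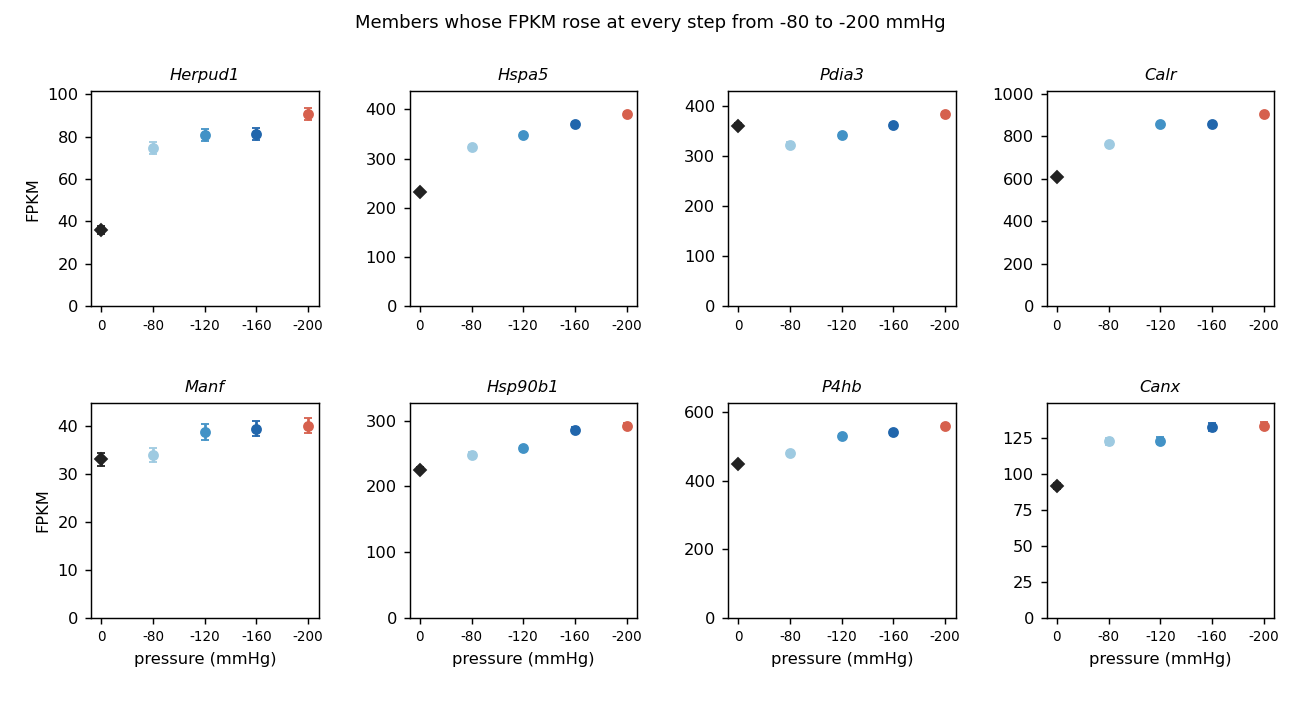
FPKM against pressure for the 8 genes that stood higher at each step from -80 to -200 mmHg, with the control as a black diamond and bars for 95% Poisson intervals of the read counts, often smaller than the symbols. Hspa5 climbs from 324 to 390.1 FPKM and Herpud1 from 74.6 to 90.6 FPKM, while for Pdia3 the control (361 FPKM) lies inside the range of the pressures.

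As a sum, the 34 genes held 2957 FPKM in the control and 3550, 3834, 3904 and 4041 FPKM from -80 to -200 mmHg, of which Calr, P4hb, Pdia3, Hspa5 and Hsp90b1 make up most. As a share of all FPKM in a library this was 0.816% in the control and 1.19%, 1.24%, 1.28% and 1.29% under the pressures. All FPKM summed to 362360 in the control and to 299328 to 313728 under pressure, so a share of the summed FPKM rises more than the FPKM themselves.

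Other genes of the secretory pathway, in 10 lists of 158 genes, were compared in the same way. Of the 154 that were measured, 5 rose and 1 fell at all 4 pressures, beside 6.49% and 4.46% of all genes, and the median log2 difference was 0.21 to 0.24. The signal peptidase subunit Spcs3 rose from 26.1 FPKM to between 55.1 and 60.4 FPKM, 1 of 19 in the list for translocation and signal peptide cleavage (median 0.13 to 0.21), though its mean log2 difference was 0.91 with upper-quartile scaling. Prdx4, the ER peroxiredoxin that uses up hydrogen peroxide from disulfide formation, fell from 156 FPKM to 40.2, 40.6, 45.2 and 46.7 FPKM in the order of the pressures, 1 of 19 oxidoreductases and prolyl isomerases (median -0.08 to 0.03). In the list of PERK and ATF4 output 1 of 19 rose, the cystine transporter Slc7a11 (0.847 FPKM to between 3.10 and 3.76 FPKM), and the list's median was 0.37 to 0.50.

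The other lists moved less or in part. Oligosaccharyltransferase, the enzyme that adds N-glycans, had 0 of 11 genes past the rule and a median of -0.30 to -0.08. For glycan trimming the median over 13 genes was 0.21 to 0.33, for further ERAD factors over 22 genes 0.23 to 0.25 and for the COPII coat over 18 genes 0.31 to 0.32, and in each list 0 genes rose or fell at all 4 pressures. The eIF2alpha kinases and initiation factors had 0 of 12 past the rule, with a median of -0.16 to -0.08. Of the 12113 measured genes, 9456 passed the rule at no pressure. Other ER-anchored transcription factors and their proteases had the highest median, 0.60 to 0.71 over 8 genes, with 3 higher at each of the first 3 pressures and 0 at -200 mmHg, beside 10.7%, 8.85%, 9.59% and 9.10% of all measured genes.

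**Figure D4:**
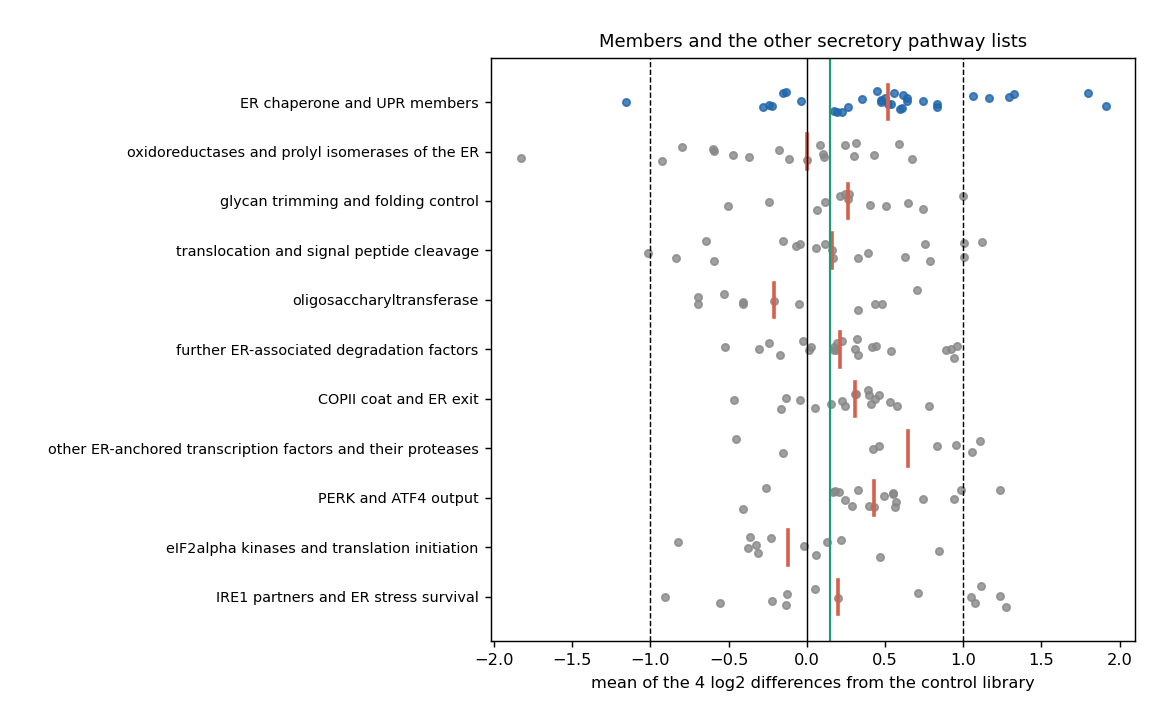
Mean of the 4 log2 differences from the control for each measured gene of the set (blue) and of the 10 other lists (grey), with the median of each list in red, the median of all measured genes in green and the size rule dashed. The set spreads from -1.16 (Ppp1r15b) to 1.91 (Dnajc3), and the oligosaccharyltransferase list lies mostly to the left of 0.

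Above 1000 nt of summed exon, the median difference from the control over all measured genes was higher in each longer bin, so lengths stand beside the results. It was -0.18 for 1000 to 2000 nt and 0.43 above 10000 nt. The bin up to 1000 nt, which holds 0 of the 33 genes, was outside that order, with a median of -0.09 and 8.03% of its genes higher at all 4 pressures. Of the genes that rose at all 4 pressures, Ern1 (8173 nt), Hyou1 (7230 nt) and Dnajc3 (5141 nt) are long, whereas Dnajb9 (2549 nt) and Herpud1 (2333 nt) belong to a length bin with a median of -0.01. Ppp1r15b (5594 nt) fell although genes of its length bin had a median of 0.19. With the trend of difference against length removed, 6 genes rose at all 4 pressures (the same 5 and Selenos) and Ppp1r15b still fell.

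**Figure D5:**
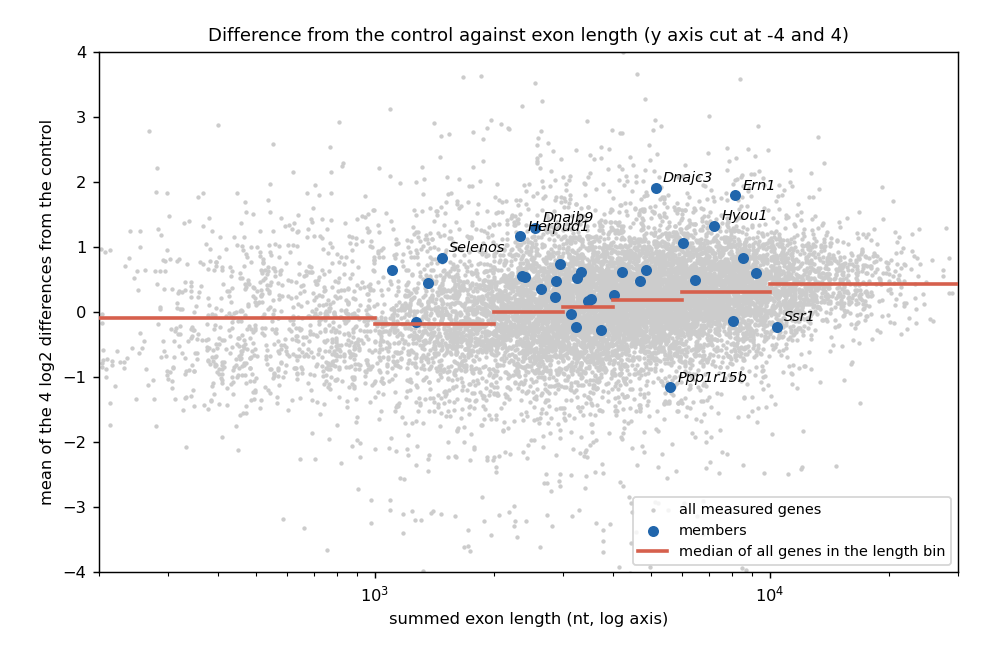
Mean of the 4 log2 differences from the control against summed exon length (log axis) for all measured genes (grey) and the 33 genes of the set (blue), with the median of all genes in each length bin as a red line. The red line starts at -0.09 in the shortest bin, is lowest at -0.18 for 1000 to 2000 nt and climbs from there to 0.43, and Herpud1, Dnajb9 and Selenos lie well above it among shorter genes.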

How the data were processed

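RNA-seq of 5 BMSC libraries, 1 per condition, was deposited by the authors as 1 table of FPKM values per gene. The submitters' processing notes name featureCounts 1.5.0-p3, SAMtools, HISAT2 and, as genome, the rat build rn6, yet all 55401 IDs are mouse Ensembl IDs. Symbols and exon lengths came from GENCODE M21 (GRCm38), where 55141 IDs matched. Whether counting used strand is not given in these sources. Genes that overlap may therefore share reads. FPKM times exon length gave whole reads (tolerance 0.001) for 98.8% of genes, used for totals and intervals only. Intervals are 95% exact ones and cover counting error only. They treat reads as independent, and are too narrow where reads are not independent molecules. Fold differences use log2(FPKM + 1) over genes averaging 1 FPKM or more. The 34 genes were fixed by name, the 158 genes of other lists are named where all 4 pressures passed the size rule, and 3 further symbols were matched through RefSeq synonyms. Members, lists and rules were chosen with earlier results of these data known. Of 2 IDs named Ddit3, the row at 0 was left out. The functions were tested on simulated reads. Alternatives were pseudocounts of 0.1 and 5, no filter, a mean of at least 5 FPKM, a 1.5-fold rule, the mean of the 4 differences, trimmed-mean (30% off each end), upper-quartile and quantile scaling. Equal summed FPKM and removal of the length trend (50 bins) were added after the data were seen. Columns of other samples numbered 0. Promoters came from RefSeq (GRCm38.p6), and protein sequences were not used here. The work was done in Python 3.11.15 with scipy 1.17.1, pandas 2.3.3, matplotlib 3.10.9 and numpy 2.4.6.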

Additional observations from a re-analysis of the deposited data

How the results depend on the processing

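The median of all genes lies 0.15 above the control on the log2 scale as deposited, 0.00 with trimmed-mean scaling and 0.35 with equal summed FPKM, so counts and medians move with scaling. The members' median (mean of the 4 pressures) was 0.52 as reported, 0.35 with the trimmed mean, 0.31 with upper-quartile scaling, 0.69 after quantile normalization, 0.75 with equal summed FPKM, 0.57 with the length trend removed and 0.47 with a pseudocount of 5. It was above the median of all genes in each setting run.

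Of the 5 genes higher at all 4 pressures, Ern1, Hyou1, Dnajb9 and Dnajc3 stayed so under every scaling, and Herpud1 did not with the trimmed mean or upper-quartile scaling. A pseudocount of 5 left 1 (Dnajc3), beside 1.75% of all measured genes, and 0 lower at any pressure or at all 4 (beside 2.72% at all 4). The 1.5-fold rule gave 9 at all 4 pressures (beside 17.8% of all measured genes), and 10, 13, 13 and 15 at -80, -120, -160 and -200 mmHg. For the single pressures no share of all measured genes is given under this rule. Whether the counts there exceed such a share, or rise with pressure more than it does, was not tested. Equal summed FPKM gave 6 higher at all 4 pressures, beside 10.3% of all measured genes, and 0 lower at all 4, beside 3.12%. Ppp1r15b missed the size rule there at -80 and -200 mmHg, and with a pseudocount of 5 at every pressure. No gene called at all 4 pressures changed direction in any setting.

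Members higher at each step of pressure numbered 5 with equal summed FPKM, 4 with upper-quartile scaling and 3 after quantile normalization, in place of 8. Of all measured genes 3.43%, 5.88% and 5.69% were so in that order, in place of 5.67%. Members lower at each step numbered 1 with the trimmed mean and 0 with upper-quartile scaling, in place of 2. Under at least 1 scaling Pdia3, P4hb, Hsp90b1, Manf, Edem2, Pdia6, Dnajb11, Derl2, Sec61b and Ssr1 changed side of the control or straddled it. No paired analysis was possible because each condition has 1 library, and no library could be left out. Derl3 alone had too few reads to be measured. For Pdia3, Manf, Edem2, Derl2 and Sec61b the 95% interval of the read ratio to the control included 1 at some pressures. Their side of the control is not settled by the reads there.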

Other observations

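Genes that link the ER to calcium release and cell death were in a separate list of IRE1 partners and survival factors, of which 13 were measured. At all 4 pressures 3 of them were higher and none lower (beside 6.49% and 4.46% of all genes), with a median log2 difference of 0.18 to 0.24. The inositol trisphosphate receptor genes Itpr1 and Itpr2, which encode calcium release channels of the ER, were among the 3. Itpr1 stood at 1.498 FPKM in the control and at 5.50, 4.92, 5.11 and 4.68 FPKM from -80 to -200 mmHg. Itpr2 stood at 1.78 FPKM and at 5.03, 5.48, 4.88 and 4.67 FPKM. Pmaip1 (NOXA), a BH3-only death protein, stood at 1.49 FPKM and at 5.26, 5.01, 4.52 and 4.68 FPKM, on at least 75 reads. For all 3 the pressure libraries lay together, well above the control. The channel genes are long (18319 and 14802 nt of exon), and with the length trend removed their mean log2 differences were 0.96 and 0.77, short of the rule, while that of Pmaip1 (2732 nt) was 1.40. Upper-quartile, trimmed-mean and quantile scaling each gave 1 gene of the list higher at all 4 pressures, and a pseudocount of 5 gave 0.

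Of the 13 genes, 7 (53.8%) were above the control at all 4 pressures, near the 51.5% of all measured genes. Another 5 (38.5%) were below it, against 33.3% of all measured genes. The following 4 of those below were chosen after their values were seen. Traf2, an adaptor of IRE1, stood at 12.6 FPKM in the control against 10.4 to 10.9 FPKM. Rtcb, the ligase that joins Xbp1 exons, stood at 65.4 FPKM and 57.4 to 62.2 FPKM. The pore-forming Bak1 stood at 35.7 FPKM and 16.7 to 20.7 FPKM, past the size rule at -200 mmHg only, and Bax at 56.5 FPKM and 36.7 to 39.3 FPKM, past it at no pressure.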
